A study of Mus musculus with 15 samples.

Results

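Of 10 genes that mark neutrophil granules and the neutrophil S100 proteins, 9 were measured in the livers of 15 mice. Only S100a8 and Prtn3 were called higher in diabetic KKAy mice against C57BL/6J mice, and the Prtn3 call depended on the form of test. The 10 genes were chosen by name: S100a8, S100a9, Ngp, Camp, Ltf, Elane, Mpo, Prtn3, Retnlg and Mmp8. Each of the 9 had 1 probe set whose annotation gave that symbol alone, among 18193 genes tested, and Retnlg was not analysed here. Liver RNA from 5 mice per group was hybridised to Affymetrix whole-genome mouse arrays, with 1 mouse per array. The normal group was C57BL/6J mice given distilled water, the model group was KKAy mice given distilled water, and the XKA group was KKAy mice given Xiao-Ke-An (XKA), a Chinese herbal medicine for type 2 diabetes, at 1.5 g/kg. All mice were male, were 10 weeks old when dosing began, and were dosed by mouth once daily for 32 days. KKAy mice carry the yellow allele of the agouti gene on the KK background and become obese and hyperglycaemic. Their diet was high in fat, C57BL/6J mice ate chow, and the strains were bought from different suppliers. Strain, diet and supplier therefore cannot be told apart in any comparison with C57BL/6J mice. In the text, arrays are named by group and mouse number as C57BL/6J 1 to 5, KKAy 1 to 5 and KKAy+XKA 1 to 5.

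Neutrophils carry their antimicrobial proteins in granules that are filled in the bone marrow. Primary granules hold myeloperoxidase (Mpo) and the serine proteases neutrophil elastase (Elane) and proteinase 3 (Prtn3), whose messenger RNAs are made early, in promyelocytes. Specific and gelatinase granules hold lactoferrin (Ltf), cathelicidin (Camp), neutrophilic granule protein (Ngp) and the collagenase Mmp8, whose messages come later. S100a8 and S100a9 encode the subunits of calprotectin, a calcium- and zinc-binding protein of the neutrophil cytosol that is also a ligand of the receptors Tlr4 and Ager, and their messages persist in mature cells. Circulating neutrophils reach the liver through its sinusoids, and hepatocytes answer inflammatory cytokines by secreting acute phase proteins.

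The genes lie partly side by side. S100a8 and S100a9 are on chromosome 3 with 0 protein-coding genes between them, Prtn3 and Elane are on chromosome 10 with 0 between them, and Camp, Ngp and Ltf lie apart on chromosome 9. In each of these adjacent pairs 1 gene was called higher in KKAy mice and its neighbour was not. The difference between neighbours was not tested in either pair. The sequences before the start of those 4 genes are shown as description, and their part in the changes was not tested. Each is the 250 bases upstream of the RefSeq start in GRCm38.p6, written 5′ to 3′ on the strand of the gene, with matches to the 8-base motif GAGGAAGT, or its reverse complement ACTTCCTC, in capitals.
S100a8 (chr3:90668821-90669070, plus strand): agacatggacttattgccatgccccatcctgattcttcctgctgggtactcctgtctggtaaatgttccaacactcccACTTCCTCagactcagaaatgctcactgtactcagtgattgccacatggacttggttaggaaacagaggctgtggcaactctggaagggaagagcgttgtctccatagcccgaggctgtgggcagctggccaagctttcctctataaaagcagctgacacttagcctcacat
S100a9 (chr3:90695722-90695971, minus strand): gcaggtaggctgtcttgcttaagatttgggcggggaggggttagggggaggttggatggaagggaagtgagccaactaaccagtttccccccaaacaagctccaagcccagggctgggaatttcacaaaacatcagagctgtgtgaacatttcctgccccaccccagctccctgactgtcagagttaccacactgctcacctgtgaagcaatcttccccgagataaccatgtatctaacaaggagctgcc
Prtn3 (chr10:79879417-79879666, plus strand): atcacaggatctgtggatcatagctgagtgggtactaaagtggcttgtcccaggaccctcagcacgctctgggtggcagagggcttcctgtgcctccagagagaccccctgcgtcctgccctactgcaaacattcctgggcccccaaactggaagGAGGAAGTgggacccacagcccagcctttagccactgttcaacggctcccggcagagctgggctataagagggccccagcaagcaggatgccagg
Elane (chr10:79886062-79886311, plus strand): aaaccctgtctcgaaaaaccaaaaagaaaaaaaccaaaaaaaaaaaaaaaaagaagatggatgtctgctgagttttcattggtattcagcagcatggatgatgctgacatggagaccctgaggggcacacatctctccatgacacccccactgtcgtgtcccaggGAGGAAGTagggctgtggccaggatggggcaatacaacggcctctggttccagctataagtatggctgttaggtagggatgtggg
GAGGAAGT resembles the sequence bound by PU.1, an ETS-family factor of myeloid cells. On either strand it was present upstream of S100a8, Elane, Mpo, Prtn3 and Mmp8. It was present in 2.44% of 32851 promoters of the same length, but it was chosen after the sequences of the 10 genes were seen, so its frequency among them was fixed by that choice and is no result. Its near end lay 164 bases before the start of S100a8, 87 bases before that of Prtn3 and 77 bases before that of Elane. The motif TTNNGCAA, part of the sequence bound by C/EBP factors, was present upstream of S100a9, Ngp, Ltf, Retnlg and Mmp8, against 9.56% of promoters. TATAAA was found in S100a8 alone of the 10 genes, against 12.4% of promoters. The frequencies of TTNNGCAA and TATAAA were not tested either, and neither is a result about the 10 genes. Matches to the motifs did not overlap.

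The deposited probe-set intensities had array medians of 127 to 182, and each array was scaled to a median of 1000 before log2. Signals below are scaled signals, so 1000 is the level of the middle probe set of an array, and levels of different probe sets were not compared with each other. Over all genes, the median log2 change from C57BL/6J to KKAy mice was -0.04 as deposited and 0.15 after scaling. Of the genes called in that comparison 1924 were higher and 442 lower after scaling, 1137 and 1027 as deposited, and 1602 and 1102 after quantile normalization. The liver genes albumin (Alb), transthyretin (Ttr) and apolipoprotein A-I (Apoa1) were far above the array median in all 15 arrays. Of 20 neutrophil surface and receptor genes, 11 had a C57BL/6J mean above the array median and 12 had a KKAy mean above it. Among them the receptor Cxcr2 lay between 81.8 and 578 in all arrays.

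In KKAy against C57BL/6J mice, S100a8 was 4.46-fold higher and Prtn3 was also higher, and none of the 9 genes was called lower. The other 7 genes did not pass the test (limma, Benjamini-Hochberg adjusted p under 0.05 over all genes). Over all 18193 genes 13% were called in this comparison, 10.6% higher and 2.43% lower, and 2 calls among 9 genes is close to that background, so the count is no result about the genes as a group. The median log2 change of the 9 genes was 0.37, beside 0.15 for all genes, and 7 of the 9 were above 0. Fewer or more neutrophils in the tissue and less or more RNA per cell cannot be told apart in whole liver.

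S100a8, the smaller calprotectin subunit, had scaled signals of 1895, 3185, 1545, 3581 and 3099 in the 5 C57BL/6J livers. It had 6757, 8448, 19811, 14235 and 11395 in the 5 KKAy livers. Every KKAy liver was above every C57BL/6J liver, and KKAy 3 was the highest of all 15 arrays. The group means were 12129 ± 5157 in KKAy and 2661 ± 886 in C57BL/6J mice (SD, n = 5). The log2 change was 2.16 (SE 0.40, limma adjusted p = 0.00111), and the exact permutation p was 0.00794, the smallest that 5 against 5 arrays can give. Groups did not overlap for 10.6% of all genes. Without KKAy 3 and KKAy+XKA 1, the 2 arrays highest in acute phase genes, the log2 change was 1.96 (limma adjusted p = 0.000238).

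Prtn3, the primary granule protease proteinase 3, had scaled signals of 155, 338, 342, 242 and 158 in C57BL/6J livers. In KKAy livers it had 2401, 1130, 11797, 5240 and 970. The groups did not overlap, all C57BL/6J arrays were below the array median, and KKAy livers differed 12.2-fold among themselves. The log2 change was 3.57 (SE 0.90, limma adjusted p = 0.0118, exact permutation p = 0.00794). Whether the C57BL/6J signals lay above background was not tested, since the deposited table holds no detection call, so the fitted size depends on how the low signals were summarised and is no bound. With 50 added to each deposited intensity it fell to 2.50 (limma adjusted p = 0.0409), the smallest change among the alternatives. Without KKAy 3 and KKAy+XKA 1 the log2 change was 3.05 (limma adjusted p = 0.00148). Dunnett comparisons are the form of test closest to the study's post-hoc test. The Dunnett p of Prtn3 was 0.0133, and 2 of the 9 genes, S100a8 and Prtn3, were under 0.05. After a further Benjamini-Hochberg adjustment over all genes, its Dunnett adjusted p was 0.110 and S100a8 alone of the 9 genes was called.

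**Figure D1:**
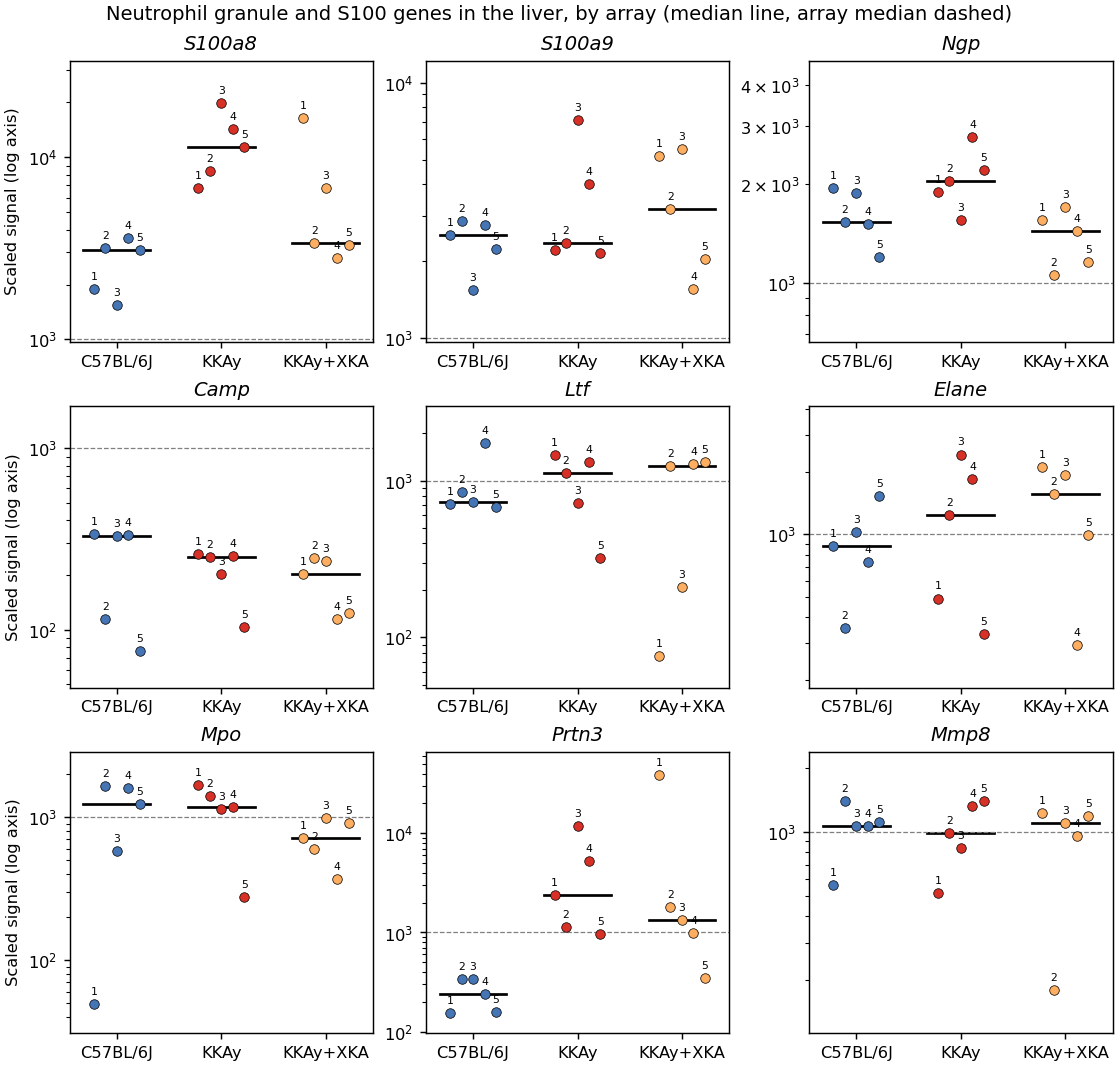
Scaled signal of each of the 9 measured genes (log axis, array median 1000 dashed) in C57BL/6J, KKAy and KKAy+XKA livers, 5 arrays per group, with the mouse number at each point and a line at the group median. S100a8 and Prtn3 are the genes whose KKAy arrays all lie above the C57BL/6J arrays, and the highest KKAy+XKA array of both is mouse 1.

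The partner subunit did not pass the test. S100a9 had scaled signals of 2538, 2872, 1544, 2777 and 2224 in C57BL/6J livers and of 2212, 2354, 7142, 4026 and 2157 in KKAy livers. Only KKAy 3 and KKAy 4 were above the highest C57BL/6J liver, and the log2 change was 0.44 (SE 0.37, limma adjusted p = 0.505). The difference between the changes of S100a8 and S100a9 was not tested.

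Elane and Mpo share the primary granule with Prtn3. Elane, the elastase, ranged from 354 to 1525 with a median of 876 in C57BL/6J livers and from 331 to 2416 with a median of 1233 in KKAy livers. Its log2 change was 0.26 (SE 0.59, limma adjusted p = 0.841), with 2 KKAy arrays above and 1 below all C57BL/6J arrays. Mpo, the enzyme that makes hypochlorous acid, was 50 in C57BL/6J 1 and 578 to 1636 in the other C57BL/6J livers, and 276 in KKAy 5 and 1131 to 1679 in the other KKAy livers. Its log2 change of 0.64 (SE 0.76, limma adjusted p = 0.664) became -0.27 without C57BL/6J 1, so 1 array sets its direction.

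The genes of the later granules overlapped widely between both groups. Ngp, a cathelicidin-like granule protein, had scaled signals of 1943, 1526, 1874, 1513 and 1195 in C57BL/6J livers and 1889, 2044, 1552, 2774 and 2199 in KKAy livers, a log2 change of 0.37 (SE 0.24, limma adjusted p = 0.379). Camp, the precursor of an antimicrobial peptide, stayed below the array median in all 15 arrays, between 76.6 and 337, with a log2 change of 0.02 (SE 0.56). Ltf, the iron-binding lactoferrin, ranged from 680 to 1749 in C57BL/6J and from 320 to 1462 in KKAy livers, with a log2 change of -0.02 (SE 0.69). The collagenase Mmp8 ranged from 559 to 1393 and from 513 to 1399, with a log2 change of -0.06 (SE 0.48). The sign of the Camp, Ltf, Elane and Mmp8 changes turned when single arrays were left out, so no direction was read for them.

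**Figure D2:**
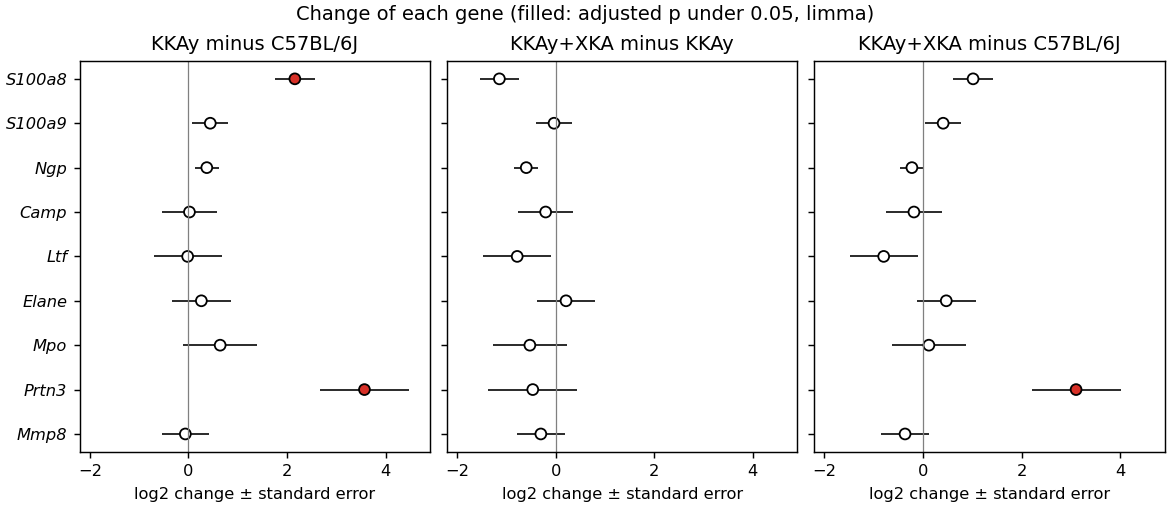
Fitted log2 change of each gene (point) with its standard error (line) in the 3 comparisons, filled where the limma adjusted p over all genes was under 0.05. S100a8 and Prtn3 are filled in KKAy minus C57BL/6J, no gene is filled in KKAy+XKA minus KKAy, and Prtn3 alone is filled in KKAy+XKA minus C57BL/6J.

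Against untreated KKAy mice, none of the 9 genes was called in XKA-treated KKAy mice by limma, while over all genes 0.176% were called, 12 higher and 20 lower. At an unadjusted limma p under 0.05 there were 2 of the 9, S100a8 and Ngp, both lower, beside 8.61% of all genes. All genes but Elane had a log2 change below 0, with a median of -0.46 for the 9 genes and -0.06 for all genes. Dunnett comparisons called 0 of the 9 genes and 0 of all genes. The comparison of XKA-treated with untreated KKAy mice shares its KKAy arrays with the one before, so the changes of a gene in both are not independent.

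S100a8 had scaled signals of 16477, 3401, 6804, 2793 and 3294 in KKAy+XKA livers. Of these 3 were below every untreated KKAy liver, KKAy+XKA 3 was level with the lowest of them, and KKAy+XKA 1 was the second highest of all 15 arrays. The mean was 6554 ± 5771 (SD, n = 5) against 12129 ± 5157, and the log2 change was -1.14 (SE 0.40, limma adjusted p = 0.372, exact permutation p = 0.0794). Without KKAy+XKA 1 the log2 change was -1.56 and the limma adjusted p was 0.0440, so that array decides whether the difference was called. It was the only array of the 15 whose omission did so.

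Ngp had scaled signals of 1556, 1055, 1695, 1436 and 1158 in KKAy+XKA livers against 1552 to 2774 in KKAy livers. KKAy+XKA 2, 4 and 5 were below every KKAy liver, and KKAy 3 was the lowest of the untreated group. The log2 change was -0.60 (SE 0.24, limma p = 0.0244, adjusted p = 0.486), with an exact permutation p of 0.0238 for this gene alone. Whichever single array was left out, the Ngp change stayed between -0.70 and -0.49 and was not called. The S100a8 change stayed between -1.56 and -0.92.

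None of the other 7 genes passed the test. S100a9 had 5147, 3216, 5499, 1552 and 2036 in KKAy+XKA livers, which overlapped those of untreated KKAy livers (log2 change -0.03, SE 0.37). Prtn3 had 38917, 1824, 1338, 993 and 344, a 113-fold range within the group (log2 change -0.46, SE 0.90). Mpo was below the array median in all 5 KKAy+XKA livers, from 371 to 988, and above it in 4 of 5 untreated KKAy livers, yet its log2 change of -0.52 had an SE of 0.76. Ltf was 76.5 in KKAy+XKA 1 and 209 in KKAy+XKA 3, and 1237 to 1321 in the remaining 3 (log2 change -0.78, SE 0.69). Camp (-0.20), Mmp8 (-0.30) and Elane (0.21) had SEs of 0.56, 0.48 and 0.59 on the same scale, and the 9 limma adjusted p values of the comparison ran from 0.372 to 0.990.

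Against C57BL/6J mice, 1 of the 9 genes was called in XKA-treated KKAy mice, Prtn3. Of all genes 7.48% were called here, and 5.53% were called higher. Its 5 KKAy+XKA arrays all lay above the C57BL/6J arrays, the lowest at 344 just above the highest at 342, and groups did not overlap for 7.03% of all genes. The log2 change was 3.11 (SE 0.90, limma adjusted p = 0.0399). The call was lost in 9 of 15 fits that left out 1 array, namely KKAy 1, KKAy+XKA 1, 2 or 3, or any C57BL/6J array, with adjusted p from just over 0.05 to 0.0857 among them and a lowest log2 change of 2.04 without KKAy+XKA 1. S100a8 lay between the other groups, with a log2 change of 1.02 (SE 0.40, limma adjusted p = 0.150), and only KKAy+XKA 1 and 3 exceeded every C57BL/6J liver. The remaining 7 genes had log2 changes from -0.80 (Ltf) to 0.47 (Elane) and limma adjusted p of 0.603 or more.

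Mice of 1 group differed strongly in several of these genes. The pooled within-group SD on the log2 scale was 1.75 for Prtn3, 1.40 for Mpo, 1.25 for Ltf and 1.08 for Elane, against a median of 0.43 over all genes. Dim probe sets vary more on a log scale, and the median SD of the 500 genes nearest in level was 0.61 for Prtn3, 0.83 for Mpo, 0.85 for Ltf and 0.70 for Elane. S100a8 and S100a9 had SDs of 0.77 and 0.67, where genes near them in level had 0.27 and 0.33. Ngp, at 0.29, varied least and less than genes near it (0.43), and Camp had 0.74 where its neighbours had 1.26. Set against genes near them in level, Prtn3 and S100a8 varied most of the 9 genes, and Ngp and Camp varied less than those genes.

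Within groups, S100a9 rose and fell with S100a8. After the group means were removed, Pearson r was 0.807 over 15 arrays (permutation p = 0.00102, adjusted over 8 relations 0.00816) and Spearman rho was 0.882 (permutation p = 0.00031, adjusted 0.00248). Without the 2 arrays farthest from the median, KKAy+XKA 1 and KKAy+XKA 4, r was 0.835. Of the 8 genes set against S100a8, S100a9 alone passed within groups. Prtn3 had r = 0.750 (rho 0.546, permutation p = 0.0180, adjusted 0.0722) and 0.465 without those 2 arrays, so its relation rests on them. Ltf had r = -0.687 (rho -0.557, permutation p = 0.0295, adjusted 0.0786), and -0.337 without them. Ngp and Camp had r of 0.07 and -0.05. With the group means kept, Prtn3 had r = 0.832 with S100a8 (permutation p = 0.0001, adjusted 0.0008, rho 0.771, adjusted 0.0096). In that form S100a9 had r = 0.694 (permutation p = 0.00437, adjusted 0.0175, rho 0.632, adjusted 0.0544), and no other gene passed. These values also hold the differences between the groups.

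Genes of the same granule had lower correlations than the calprotectin pair. Over the 36 pairs of the 9 genes the median r of the deviations was 0.146, from -0.687 to 0.807, and 4 pairs were above 0.5. Prtn3 and Elane, neighbours on the chromosome and in the granule, had r = 0.464, Elane and Mpo 0.186, and Prtn3 and Mpo 0.162. Of the later granules, Ltf and Camp had 0.0761, Ngp and Camp 0.392, and Ngp and Ltf -0.353. Mmp8 had 0.371 with Ngp, -0.416 with Camp and -0.393 with Ltf. S100a9, which is not a granule gene, had 0.672 with Elane and 0.662 with Prtn3, above every pair within a granule. These pair values are descriptions, and the points share the arrays and their scaling.

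**Figure D3:**
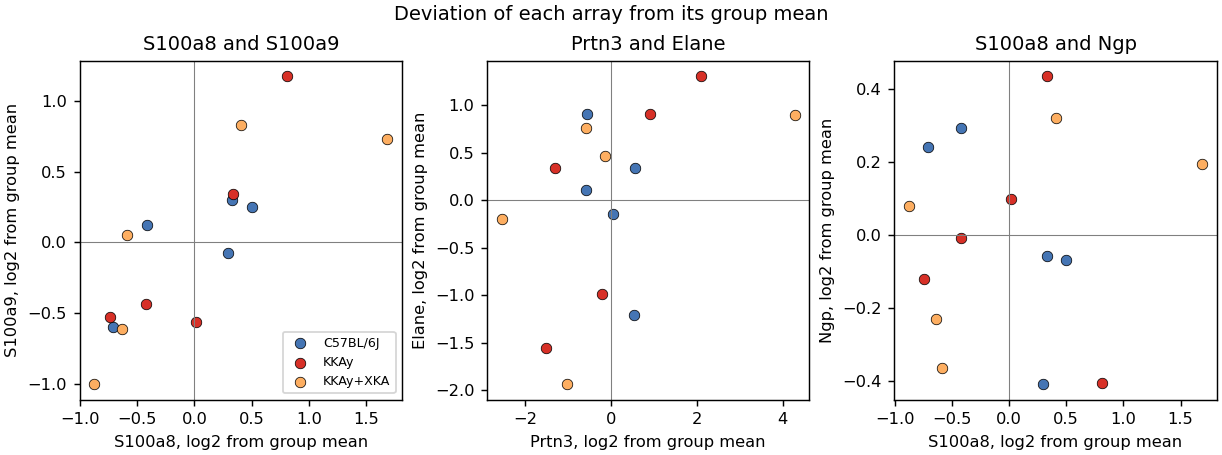
Deviation of each of the 15 arrays from its group mean, on the log2 scale, for S100a8 and S100a9 (left), Prtn3 and Elane (middle) and S100a8 and Ngp (right), coloured by group. Points lie along a rising line for S100a8 and S100a9 (r = 0.807), scatter for Prtn3 and Elane (r = 0.464) and show no slope for S100a8 and Ngp (r = 0.07).

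Acute phase genes of the hepatocyte were also higher in KKAy mice. Of 23 acute phase genes measured, 13 were higher and 0 lower in KKAy against C57BL/6J mice, beside 10.6% higher and 2.43% lower over all genes. Their median log2 change was 1.50, beside 0.15 for all genes. The serum amyloid gene Saa2 was 9202 to 55952 in C57BL/6J and 115325 to 706846 in KKAy livers (log2 change 3.77, SE 0.74, limma adjusted p = 0.00174). Lcn2, lipocalin 2, is stored in specific granules and is also made by hepatocytes, and its signals were 5515 to 17395 in C57BL/6J and 30399 to 733309 in KKAy livers (log2 change 3.56, SE 0.89, limma adjusted p = 0.0113). KKAy 3 was highest of its group in Prtn3, S100a8, Saa2, Saa3 and Lcn2, and KKAy+XKA 1 was highest of its group in all of these too. The summed signal of the 23 genes ran from 2487930 to 3770280 in C57BL/6J, from 4434920 to 11663800 in KKAy and from 3350590 to 9144750 in KKAy+XKA livers.

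After group means were removed, the mean log2 level of the 23 acute phase genes was related to Prtn3 with r = 0.897 over 15 arrays (permutation p = 0.00074, adjusted over 9 relations 0.00666; rho 0.757, adjusted 0.0603). This relation was looked at after the values were seen. Without KKAy+XKA 1 and KKAy 3, the arrays farthest from the median, r was 0.712. S100a9 had r = 0.778 (permutation p = 0.00625, adjusted 0.0281; rho 0.725, adjusted 0.0645) and 0.604 without them. S100a8 did not pass, with r = 0.693 (permutation p = 0.0198, adjusted 0.0593; rho 0.546, adjusted 0.168), and r fell to 0.183 without those arrays. Elane (0.568), Camp (0.350), Mpo (-0.03), Ngp (-0.02), Ltf (-0.415) and Mmp8 (-0.214) did not pass either. Without the 2 arrays Mmp8 had r = -0.646 and Ltf 0.169. With the group means kept, r was 0.945 for Prtn3 (adjusted permutation p = 9e-05), 0.850 for S100a8 (adjusted 0.000405) and 0.715 for S100a9 (adjusted 0.00906). No other gene passed in that form, which also holds the differences between the groups. The part of the acute phase genes in the changes of Prtn3 and S100a8 was not tested.

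**Figure D4:**
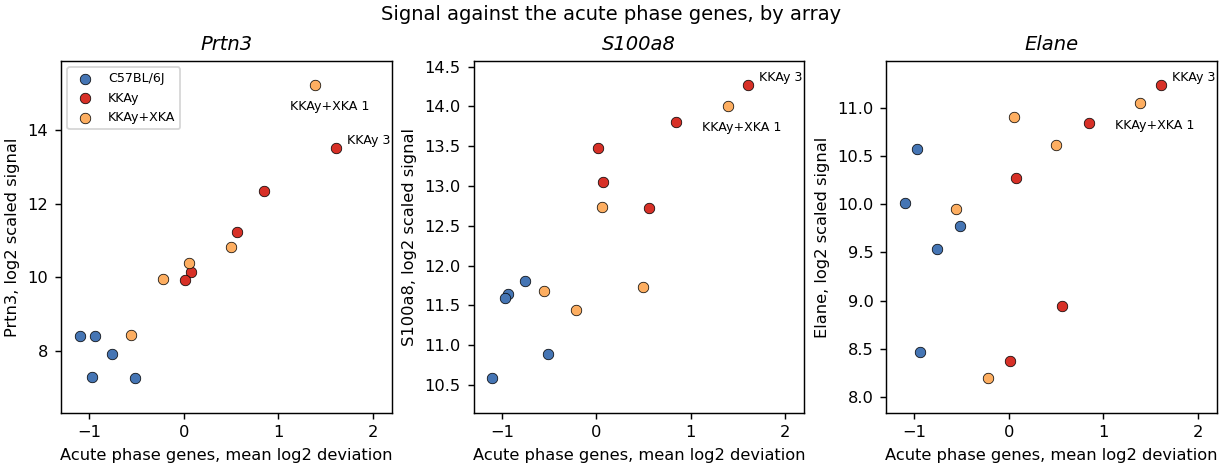
Log2 scaled signal of Prtn3, S100a8 and Elane in each of the 15 arrays against the mean log2 deviation of 23 acute phase genes in the same array, coloured by group. KKAy 3 and KKAy+XKA 1 are the arrays farthest right, with acute phase means of 1.61 and 1.39, and they hold the highest Prtn3 and S100a8 signals.

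Of 25 other granule and precursor genes 4 were higher in KKAy mice and 0 lower, and 19 had a change above 0. The median log2 change was 0.71, beside 0.15 for all genes. Over all genes 10.6% were called higher and 2.43% lower in this comparison. List counts of this comparison, here and below, were not tested against that share. The 4 were Lcn2, lysozyme 2 (Lyz2, 0.80), the oxidase subunit Cyba (0.75) and the leukotriene pathway gene Alox5ap (0.86). Lyz2, Cyba and Alox5ap are expressed in macrophages as well. Of 20 neutrophil surface and receptor genes only Csf2rb, the common beta chain of the GM-CSF receptor, was higher (1.01, limma adjusted p = 0.00401). The list's median was 0.27. The receptor Csf3r had a log2 change of -0.29 (SE 0.48) and Cxcr2 of 0.15 (SE 0.59). The summed signal of these 20 genes ran from 25777 to 32508 in C57BL/6J, from 30351 to 57737 in KKAy and from 26843 to 38229 in KKAy+XKA livers. That sum leans on bright probe sets. In KKAy 4, its highest array, Csf2rb was 10782, Fcgr3 was 9734 and Fcgr4 was 8821, while Cxcr2 was 205. Ly6g was not analysed here. None of 18 neutrophil chemokine and growth factor genes passed in this comparison.

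Other S100 genes moved in both directions. Of 12 genes measured in this list, which also holds the S100P-binding protein gene S100pbp, S100a4 (log2 change 1.75, limma adjusted p = 0.0384) and S100a10 (0.58, adjusted p = 0.0265) were higher and S100a13 (-0.60, adjusted p = 0.0222) was lower. Among 11 receptors and signaling genes of calprotectin, the scavenger receptor Cd36 (2.24), basigin (Bsg, 0.88) and the kinase Irak1 (0.40) were higher, while Tlr4, the receptor best known for S100a8 and S100a9, had -0.62 (SE 0.75). Among 10 inhibitors of neutrophil proteases, Serpina3n was higher (1.94, SE 0.40, limma adjusted p = 0.00271).

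Markers of other cells that could be in the tissue moved in part. Of 11 monocyte and macrophage markers Mpeg1 was higher (1.09) and none lower, and of 11 Kupffer cell markers C6 (1.26), Slc40a1 (1.04) and C1qc (0.56) were higher and Marco was lower (-3.10). Their summed signals ran from 117641 to 182328 and from 201813 to 323663 in C57BL/6J livers, and from 141173 to 336002 and from 367890 to 635830 in KKAy livers. The Kupffer sums of the groups did not overlap, but without C6 and Slc40a1 they did, at 105980 to 200050 in C57BL/6J and 132594 to 342661 in KKAy livers. Of 13 erythroid and blood markers Alas2 was higher (1.88), while Slc4a1 (-0.78, SE 0.36) and Hba-a1 (0.53, SE 0.62) did not pass. The Hba-a1 probe set was dim, with means of 610 in C57BL/6J, 843 in KKAy and 468 in KKAy+XKA livers, below the array median. The blood content of the livers was not read from it. Of 10 platelet markers Itgb3 was lower (-2.13), and Pf4 had 0.49 (SE 0.20). None of 13 lymphocyte and none of 12 eosinophil, basophil and mast cell markers passed. Of 12 hepatocyte markers Apob (0.57) and Fga (0.63) were higher. The part of these cells in the changes of S100a8 and Prtn3 was not tested.

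In XKA-treated against untreated KKAy mice no gene of any of the 14 lists was called by limma. At an unadjusted limma p under 0.05 there were 6 of 11 monocyte and macrophage markers, 5 of 11 Kupffer cell markers and 5 of 25 other granule genes. There were also 5 of 11 calprotectin receptor and signaling genes, 3 of 20 surface genes and 0 of 23 acute phase genes. Of all genes 8.61% were under that threshold. The median log2 changes of the monocyte and Kupffer lists were -0.62 and -0.51, beside -0.46 for the 9 granule and S100 genes and -0.06 for all genes. The Kupffer lectin Clec4f had -0.91 (SE 0.28, limma adjusted p = 0.274). In XKA-treated against C57BL/6J mice, 9 of 23 acute phase genes were higher, beside 5.53% of all genes. Of the other granule genes Anxa1 (0.90) and Alox5 (1.45) were higher and Serpinb1a, an inhibitor of elastase, was lower (-3.76, SE 0.93). Serpinb1a was 26.1 in KKAy+XKA 1 and 642 to 4173 in the other KKAy+XKA livers, so its fitted size leans on that array.

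**Figure D5:**
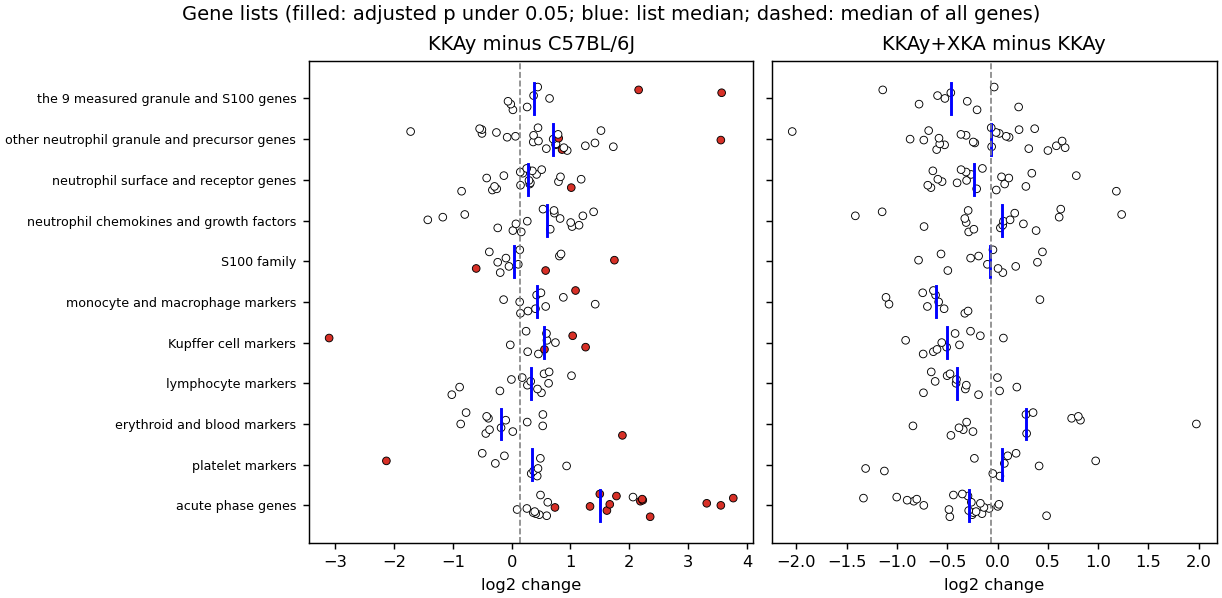
Log2 change of each gene of 11 lists in KKAy minus C57BL/6J (left) and KKAy+XKA minus KKAy (right), with the list median as a blue bar, the median of all genes dashed and genes of limma adjusted p under 0.05 filled. On the left the acute phase genes sit highest, with a median of 1.50 and 13 of 23 filled, and on the right no gene is filled.

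The genes whose signal was most like that of S100a8 over the 15 arrays, among 11628 genes with a mean above the array median, were Ccl6 (r = 0.939), a chemokine of myeloid cells, Lhx6 (0.931), Slc41a2 (0.914), Atp11a (0.912) and Stimate (0.911), followed by Chpf2, Ube2g2, Msn, Mbl1 and Slc35b1 at 0.898 to 0.908. Ccl6 remained among the closest after group means were removed (r = 0.901), with Dhx57 (0.902), Wars (0.888), Tmem268 (0.886) and Fabp5 (0.871). For Prtn3, looked up after its values were seen, the closest were Steap4 (0.958), Serpina3n (0.949), Stk38l (0.946), Il13ra1 (0.942) and Map7d1 (0.939). Orm2 (0.936) and Lrg1 (0.930) were also within the first 10. Steap4 and Orm2 are in the list of 23 acute phase genes whose mean was set against Prtn3 above, and Lrg1 is not. S100a9 was not among the 10 closest to S100a8 in either form, with r = 0.694 over all arrays. These likenesses are descriptions, since arrays of 3 groups share strain, diet and scaling.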

How the data were processed

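Liver RNA of 15 male mice was labelled with a 3′ IVT kit and hybridised to Affymetrix whole-genome mouse arrays. The deposited values are linear intensities, 1 per probe set and array. Their methods name median scaling to 1000 in ArrayTrack, and since the deposited medians differ, each array was scaled to 1000 here. Probes were summarised and background subtracted by a method not given in the sources used here. No detection calls were used, and the number of arrays limits the precision.

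Of 45101 probe sets 34958 carried 1 gene symbol, 932 several and 9211 none, and 34754 were matched through Entrez identifiers; 13 control probe sets with a symbol were left out. For each of 18193 genes the probe set of highest mean was kept. Log2 signals were compared in 1 fit of all 15 arrays with limma 3.58.1 in R 4.3.3 (intensity trend, two-sided, Benjamini-Hochberg over all genes, adjusted p under 0.05), after a test on simulated data. Exact permutation tests compared single genes. Correlations used 100000 permutations, within groups after group means were removed and over all arrays otherwise (numpy 2.4.6, pandas 2.3.3). Counts of passing correlations under the alternatives used the within-group form. Figures used matplotlib 3.10.9 in Python 3.11.15. Of 246 list entries 210 were measured. Genes were named if they were members, passed in a list (up to 4 per list and comparison), were defining markers, or were among the 10 genes most like S100a8. The genes and lists were chosen with earlier results of these data known. The alternatives were other scalings, probe-set choices, filters, fits and omitted arrays. Promoters came from RefSeq (GRCm38.p6).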

Additional observations from a re-analysis of the deposited data

Results flagged for a closer look

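Of 27 sets of 5 arrays (9 genes in 3 groups), 4 held an array whose gap to its nearest neighbour took up more of the group's range than Dixon's limit for 5 values, and chance flags about 1 in 20 groups. Mmp8 was low in KKAy+XKA 2, at 181 where the next was 951, with a gap ratio of 0.867. Mpo was low in KKAy 5, at 276 where the next was 1131, with a ratio of 0.781. Ltf was high in C57BL/6J 4, at 1749 where the next was 844, with a ratio of 0.772. Camp was low in KKAy 5, at 103 where the next was 203, with a ratio of 0.727. KKAy 5 was also the lowest of its group in Ltf, Elane, Prtn3 and S100a9. Gap ratios were computed on log2 signals, where S100a8, S100a9, Ngp, Elane and Prtn3 had no such array in any group. On the linear signals, checked after these were seen, 3 arrays passed the limit: Prtn3 in KKAy+XKA 1 (0.962), Ltf in C57BL/6J 4 (0.847) and Mmp8 in KKAy+XKA 2 (0.736).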

How the results depend on the processing

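S100a8 in KKAy against C57BL/6J mice passed in all 27 alternatives, with log2 changes from 1.96 to 2.34. Of 714 single-gene values under an alternative, 659 kept direction and side of the threshold, 15 lost the call, 1 gained it and 39 changed sign; the causes were not tested. With single arrays left out, the 9 genes held 2 calls in KKAy against C57BL/6J mice in each run, 0 to 1 in XKA against KKAy, 0 to 1 in XKA against C57BL/6J, and 1 to 3 passing correlations with S100a8 (3 without C57BL/6J 4, 2 without C57BL/6J 3), while all-gene calls ran from 1676 to 2789, from 11 (without KKAy+XKA 3) to 54 (without KKAy+XKA 1) and from 963 to 1454. The Prtn3 call in XKA against C57BL/6J mice, 1 of the 9 genes, went to 0 with intensities as deposited, the mean of probe sets, no intensity trend, only the 2 groups, or 50 added. Dunnett comparisons gave 1 call in KKAy against C57BL/6J mice after adjustment over all genes and 2 before it. Unadjusted exact permutation gave 1 (Ngp) in XKA against KKAy. All-gene calls in XKA against KKAy were 63 as deposited, 113 with quantile normalization, 6 with the mean of probe sets, 4 without the trend, 19 with only the 2 groups, 52 with array weights and 0 by Dunnett (944 at an unadjusted p under 0.05). In KKAy against C57BL/6J they were 3804 over all probe sets and 1379 by Dunnett, and in XKA against C57BL/6J 828 with the mean of probe sets, 2154 over all probe sets and 892 without the trend.

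Changes of sign, all far from the threshold, were these on the log2 scale. In KKAy against C57BL/6J, Camp was -0.17 as deposited, Ltf was 0.11 with array weights, 0.0143 with 50 added and 0.0523 without KKAy 3 and KKAy+XKA 1, where Elane was -0.0637. In XKA against KKAy, S100a9 was 0.00395 as deposited, 0.0104 with quantile normalization and 0.0765 without both arrays, and Elane was -0.00381 with array weights. In XKA against C57BL/6J, Mpo was -0.0352 as deposited, -0.29 with array weights and -0.17 with 50 added. Leaving out single arrays gave, in KKAy against C57BL/6J, Camp -0.33 to 0.27, Ltf -0.20 to 0.34, Elane -0.0637 to 0.65, Mmp8 -0.27 to 0.16 and Mpo -0.27 to 1.10. It gave in XKA against KKAy S100a9 -0.24 to 0.26, Elane -0.18 to 0.70, Prtn3 -1.53 to 0.17 and Mmp8 -0.52 to 0.22, and in XKA against C57BL/6J Camp -0.53 to 0.00509, Mmp8 -0.57 to 0.16 and Mpo -0.79 to 0.47. Mouse numbers did not pair the samples: correlations of same-numbered arrays ran from -0.0447 to 0.092, and 1 of 15 matched its own number best. With the replicate number as a block the 9 genes had 2, 0 and 1 calls, and all genes 2103, 22 and 1195 in the 3 comparisons.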
